A study of Mus musculus with 30 samples.

Results

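The comparison set perisynaptic against extrasynaptic pieces of diaphragm in control male mice at 26 weeks of age. It used 8 of the 30 libraries of the study, which were all those of the 4 control animals of this age, with 1 library of each piece from each animal. Perisynaptic pieces contained the neuromuscular junctions (NMJs) of the muscle and extrasynaptic pieces contained none. The control genotype was HSA-Cre;BACfxAR121. These animals carried the BACfxAR121 transgene of the SBMA (spinal and bulbar muscular atrophy) model together with HSA-Cre, a Cre recombinase under the human skeletal actin promoter. The labels call them muscle-rescued littermates of the SBMA mice, which carried BACfxAR121 without Cre. HSA-Cre acts in skeletal muscle, so cells of other types keep the transgene in both genotypes, and the controls are not wild type. Control animals at 15 weeks (3 animals, 6 libraries) and SBMA animals at 26 weeks (4 animals, 8 libraries) were used for values set beside this comparison. Nothing in the labels says that animals were pooled.

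The NMJ is the synapse between a motor axon and a muscle fibre. A fibre is one cell with many nuclei, and those under the synapse transcribe genes for the acetylcholine receptor (AChR) and other synaptic proteins that nuclei elsewhere in the fibre keep low. Agrin from the nerve acts through LRP4 and MuSK to cluster receptors, neuregulin acts through ErbB receptors, and ETS transcription factors act on synaptic promoters through a short element called the N-box. Intramuscular nerve branches, with their Schwann cells and the perineurial cells that wrap the nerve, run to the same band of the diaphragm, while the ends of the fibres lie at tendon and rib.

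Total counts ranged from 19146014 to 34694446 in the 8 libraries, against 16280873 to 34694446 in all 30. Levels are CPM, counts scaled to library size per 1000000 counts, and differences are log2 fold changes of perisynaptic over extrasynaptic with their standard errors (SE). They came from a fit over all 30 libraries with a term for each animal, and genes were called at a Benjamini-Hochberg adjusted p under 0.05. The fit called 190 of 16138 genes tested, which was 1.18%. Of these, 170 were higher in perisynaptic pieces (1.05% of genes tested) and 20 were lower (0.124%). Among the 190, 133 differed by more than 2-fold, 124 of them higher and 9 lower. For 157 of the 190, perisynaptic and extrasynaptic values did not overlap, which held for 467 genes overall (2.89%). The median log2 fold change of all genes tested was -0.02.

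The perisynaptic library of animal 2 stood apart from the other 7 along the first principal component. Genes were split into 5 equal bins of exonic length. In animal 2 the median log2 difference between pieces in the longest bin (at least 7186 bases) minus that in the shortest (at most 2101 bases) was -0.42. The same measure was -0.09, 0.04 and -0.05 in animals 1, 3 and 4. Without animal 2 the fit called 99 genes, 92 higher and 7 lower, and all 99 were among the 190. Without animal 1 it called 117. Animals 1 and 2 taken alone gave 207 calls, and animals 3 and 4 taken alone gave 59. Those pairs are runs of neighbouring animal numbers, and the labels give no batch. Less RNA per cell and fewer cells of a type cannot be told apart in bulk tissue, which applies to every difference below.

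**Figure D1:**
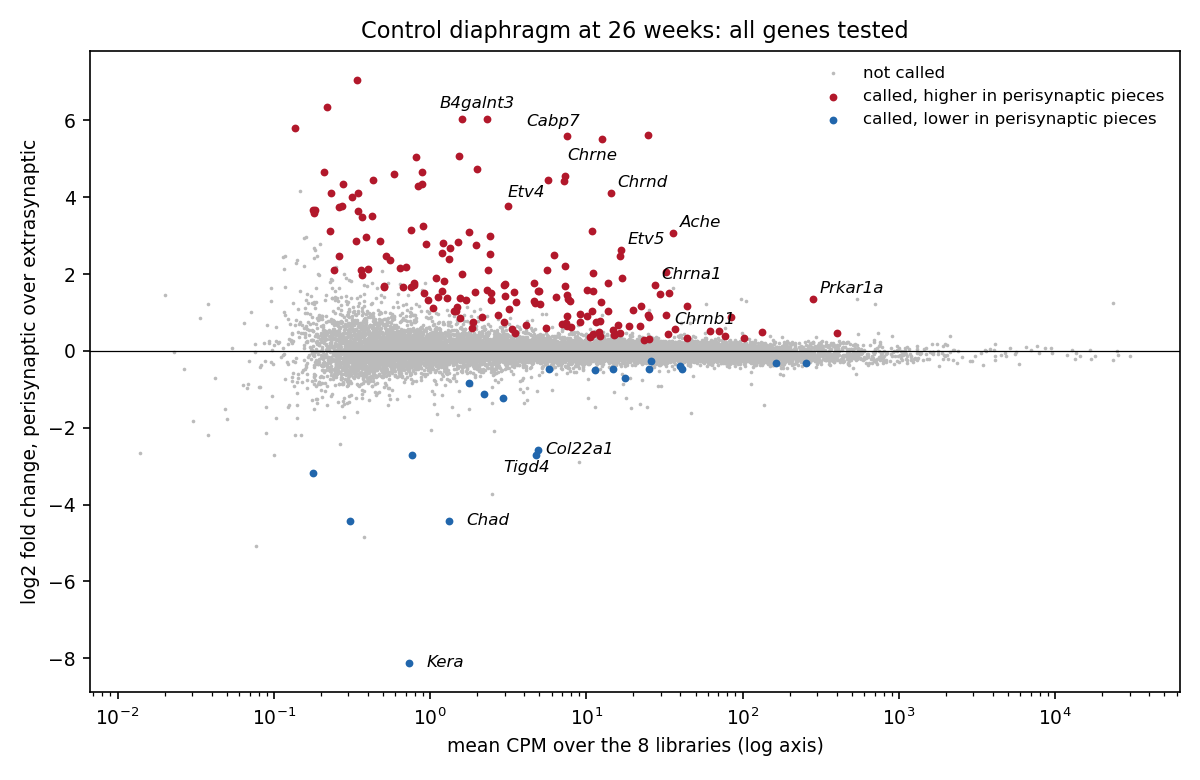
Log2 fold change of perisynaptic over extrasynaptic pieces (vertical axis) against mean CPM over the 8 libraries (horizontal log axis) for the 16138 genes tested, with 170 genes called higher in red, 20 called lower in blue and the rest in grey. Called genes lie mostly above the line, with Chrne at 5.51, Ache at 3.08 and Etv5 at 2.62, and Tigd4 at -2.70 lies below it.

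Of the 5 genes for muscle AChR subunits, 4 were higher in perisynaptic pieces, with a median log2 fold change of 1.71 over the 5. The promoter windows that the RefSeq table holds for this family and for Ache are shown because these genes differed in how unequal they were between the pieces. Each is the 250 bases before the RefSeq gene start (GRCm38.p6), printed 5′ to 3′ on the strand of the gene. Capitals mark the N-box core CCGGAA and the E-box CANNTG (the site of MyoD-family factors), searched on both strands, with positions counted back from the last base before the gene start as -1. Windows are chr11:70619195-70619444 (minus strand) for Chrne, chr2:73580339-73580588 (minus) for Chrna1, chr11:69795938-69796187 (minus) for Chrnb1, chr1:87205561-87205810 (plus) for Chrng and chr5:137288004-137288253 (plus) for Ache.
Chrne: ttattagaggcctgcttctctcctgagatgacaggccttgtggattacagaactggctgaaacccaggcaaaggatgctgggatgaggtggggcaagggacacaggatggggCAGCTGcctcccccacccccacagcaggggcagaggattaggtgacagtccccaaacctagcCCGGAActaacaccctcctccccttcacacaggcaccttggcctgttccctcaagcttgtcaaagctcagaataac
Chrna1: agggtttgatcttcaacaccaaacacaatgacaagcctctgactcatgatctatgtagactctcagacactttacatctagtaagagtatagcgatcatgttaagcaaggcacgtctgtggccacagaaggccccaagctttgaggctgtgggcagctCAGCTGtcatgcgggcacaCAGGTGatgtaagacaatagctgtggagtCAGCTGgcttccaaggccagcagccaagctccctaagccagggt
Chrnb1: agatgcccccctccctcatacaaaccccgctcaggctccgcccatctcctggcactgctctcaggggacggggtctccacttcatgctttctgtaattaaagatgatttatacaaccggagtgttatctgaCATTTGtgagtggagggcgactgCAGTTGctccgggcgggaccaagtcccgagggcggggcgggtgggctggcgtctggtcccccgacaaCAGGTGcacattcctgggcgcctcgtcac
Chrng: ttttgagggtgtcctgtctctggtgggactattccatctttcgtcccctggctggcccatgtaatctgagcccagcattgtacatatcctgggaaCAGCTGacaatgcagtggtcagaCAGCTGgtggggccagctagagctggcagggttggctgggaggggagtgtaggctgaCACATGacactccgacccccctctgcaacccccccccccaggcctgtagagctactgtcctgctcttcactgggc
Ache: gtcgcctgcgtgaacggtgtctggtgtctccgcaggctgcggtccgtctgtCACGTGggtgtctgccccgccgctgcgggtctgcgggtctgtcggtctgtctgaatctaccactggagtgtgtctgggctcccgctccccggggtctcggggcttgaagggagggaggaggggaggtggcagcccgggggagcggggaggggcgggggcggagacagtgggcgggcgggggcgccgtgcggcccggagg
The Chrne window held an N-box at -76 and an E-box at -138. The other windows held no match to CCGGAA, and no window is shown for Chrnd. In the GENCODE annotation Chrng starts at 87204657 and Ache at 137287519. Both windows therefore lie inside the GENCODE spans of their genes, and other starts of these genes were not searched. E-boxes began at -92, -73 and -44 for Chrna1, at -119, -96 and -29 for Chrnb1, at -155, -132 and -75 for Chrng and at -199 for Ache. A match is a string of letters and not a shown binding site.

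Chrne, the epsilon subunit of the adult receptor (chromosome 11, 70614883 to 70619216, minus strand, mm10), had 25.2, 35.9, 19.2 and 18.2 CPM in perisynaptic pieces of animals 1 to 4, against 0.334, 0.453, 0.736 and 0.528 CPM in extrasynaptic pieces. Every perisynaptic library stood far above every extrasynaptic one. The log2 fold change was 5.51 (SE 0.56, adjusted p = 1.8e-05), and the extrasynaptic level was 2.08% of the perisynaptic one on average. Chrnd, the delta subunit, had 30.6, 35.7, 22.7 and 19.9 CPM in perisynaptic pieces and 1.62, 0.951, 2.21 and 1.32 CPM in extrasynaptic pieces. Its groups were as clearly apart, with a log2 fold change of 4.12 (SE 0.35, adjusted p = 1.9e-06). Chrna1, the alpha subunit that binds acetylcholine, had 49.5, 40.9, 40.5 and 37.3 CPM in perisynaptic pieces, against 12.9, 9.24, 15.6 and 13.8 CPM in extrasynaptic pieces. The groups did not overlap, but the extrasynaptic level was 30.6% of the perisynaptic one, and the log2 fold change was 1.71 (SE 0.11, adjusted p = 7.1e-08).

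Chrnb1, the beta subunit, was the least unequal of the 4 called subunits. It had 37.7, 44.9, 32.4 and 39.3 CPM in perisynaptic pieces and 26.6, 26.3, 27.6 and 32.1 CPM in extrasynaptic pieces, which came close without overlapping. Its log2 fold change of 0.45 (SE 0.09, adjusted p = 0.011) lost its call without animal 1 and without animal 2. The Chrnb1 call was also lost in the fit on the 8 libraries alone (adjusted p = 0.12), without the animal term (0.25) and with animals 3 and 4 alone (0.96). Chrng, the gamma subunit of the fetal receptor, was under 1 CPM in all 8 libraries, at 0.0442 to 0.555 CPM in perisynaptic pieces and 0 to 0.782 CPM in extrasynaptic pieces. The groups overlapped (log2 fold change 0.10, adjusted p = 0.97), and its sign turned without animal 1 (-0.95), without animal 2 (-0.0047) and with animals 3 and 4 alone (-1.58). By their GENCODE spans, Chrnd and Chrng lie 4586 bases apart on the plus strand of chromosome 1. Markers of myelinating Schwann cells were also higher in perisynaptic pieces, at a summed 166 to 371 CPM against 82.1 to 95.0 CPM in extrasynaptic pieces, and their part in the differences of synaptic genes was not tested.

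Levels of different genes were set side by side per kilobase of exon, counting every exon annotated for the gene. That length can exceed the length of the transcript present, so the order of genes may depend on the annotation. On that scale the perisynaptic CPM per kilobase ranged from 12.8 to 17.8 for Chrnb1, from 10.7 to 21.2 for Chrne, from 8.50 to 11.3 for Chrna1 and from 6.06 to 10.8 for Chrnd. Neighbours in that order overlapped. In extrasynaptic pieces the mean CPM per kilobase was 11.1 for Chrnb1, 2.93 for Chrna1, 0.464 for Chrnd and 0.303 for Chrne.

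None of the 20 genes of the agrin, MuSK and receptor-clustering list was called, and their median log2 fold change was -0.06. Over all genes tested 1.18% were called, so few or no calls in this list, or in others as short, say little about the list. Musk, the receptor kinase at the centre of clustering, had 32.2, 13.3, 43.4 and 59.7 CPM in perisynaptic pieces, against 23.0, 13.9, 41.5 and 56.1 CPM in extrasynaptic pieces. The level of Musk followed the animal in both pieces, lowest in animal 2 and highest in animal 4, and the pieces overlapped (log2 fold change 0.15, SE 0.14, adjusted p = 0.64). Lrp4, the agrin receptor, had the larger value in the perisynaptic piece of each animal but was not called, at 43.2, 38.5, 61.3 and 58.4 CPM in perisynaptic pieces and 34.6, 36.4, 47.7 and 54.4 CPM in extrasynaptic pieces. Its log2 fold change was 0.22 (SE 0.09, adjusted p = 0.31).

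Rapsn, the scaffold that binds receptors, was at 38.0, 40.6, 37.2 and 35.3 CPM in perisynaptic pieces, against 40.2, 46.7, 37.6 and 33.4 CPM in extrasynaptic pieces. The groups overlapped, and its log2 fold change was -0.06 (SE 0.07, adjusted p = 0.72), with the sign turning to 0.03 with animals 3 and 4 alone. Dok7, the adaptor of MuSK, gave -0.07 (SE 0.07) and Agrn gave 0.07 (SE 0.08), neither called; Agrn turned to -0.0079 without animal 2. A self-test on simulated counts recovered 98% of 2-fold rises in this comparison. It changed only genes of at least 2 CPM and took the spread from the fit itself. Differences as small as those of Rapsn, Dok7 and Agrn were not simulated, so it cannot show that these genes are equal between the pieces.

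Among cholinesterase genes, Ache and its collagen tail Colq were higher, while the other 3 of the list were not called. Ache, the enzyme that breaks down acetylcholine in the cleft, had 70.5, 80.4, 54.4 and 53.0 CPM in perisynaptic pieces, against 8.01, 6.38, 8.74 and 6.90 CPM in extrasynaptic pieces. No library of one piece came near those of the other, and the log2 fold change was 3.08 (SE 0.25, adjusted p = 1.6e-06). Colq, which anchors the enzyme in the synaptic lamina, had 37.8, 37.5, 29.9 and 26.4 CPM in perisynaptic pieces and 18.2, 17.1, 21.4 and 14.7 CPM in extrasynaptic pieces. Its difference was smaller, at 0.88 (SE 0.13, adjusted p = 0.00061), again without overlap. Bche, a related esterase found outside synapses too, gave -0.20 (adjusted p = 0.51).

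Among 9 tested genes of the ErbB and ETS list, Etv4 and Etv5 were higher and 7 were not called. Etv5, an ETS factor of the Pea3 group, had the smallest adjusted p of the whole comparison. It had 29.3, 31.2, 26.4 and 27.3 CPM in perisynaptic pieces and 4.15, 4.44, 4.51 and 5.31 CPM in extrasynaptic pieces. Both groups were tight and far apart, with a log2 fold change of 2.62 (SE 0.12, adjusted p = 1.4e-09). Its relative Etv4 had 12.2, 16.5, 6.82 and 7.91 CPM in perisynaptic pieces, against 0.381, 0.860, 0.368 and 0.363 CPM in extrasynaptic pieces. That gap came to 4.45 on the log2 scale (SE 0.36, adjusted p = 1.6e-06).

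Etv1, the other member of the Pea3 group, had 2.77, 2.29, 3.31 and 2.52 CPM in perisynaptic pieces and 1.43, 1.90, 1.56 and 2.05 CPM in extrasynaptic pieces. The values did not overlap, but its log2 fold change of 0.64 (SE 0.17, adjusted p = 0.10) was not called. The receptors Erbb2, Erbb3 and Erbb4 gave 0.28, 0.03 and -0.58, and Gabpa, which encodes the DNA-binding subunit of the N-box factor GABP, gave -0.20 (adjusted p = 0.43). Erbb3 turned to -0.04 without animal 2 and to -0.07 with animals 3 and 4 alone. Nrg1 did not pass the filter on low counts.

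**Figure D2:**
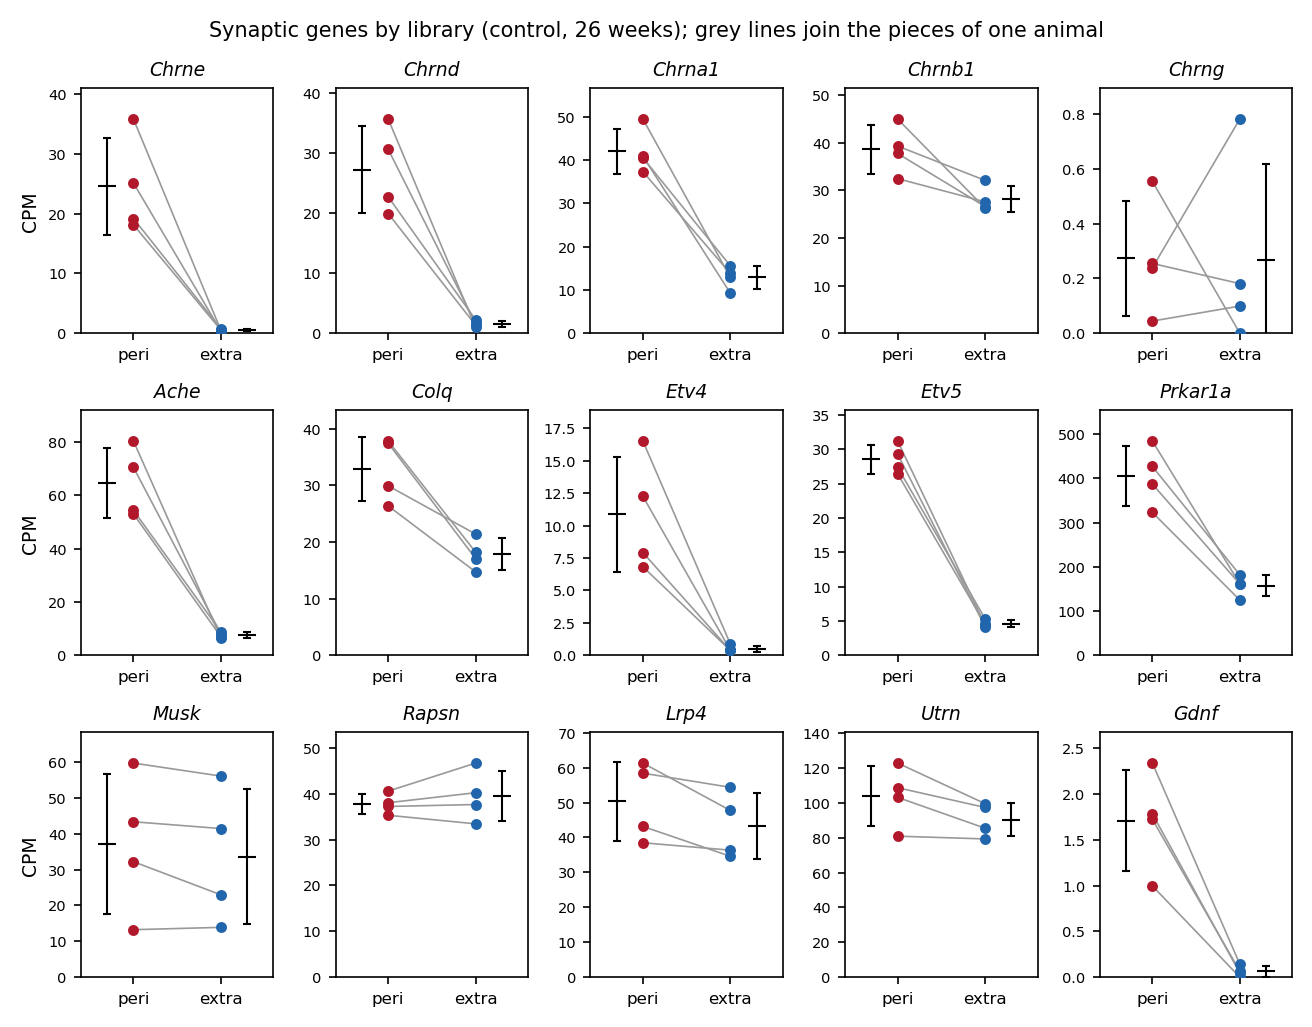
CPM of 15 synaptic genes in the 4 perisynaptic (red, left) and 4 extrasynaptic (blue, right) libraries, with grey lines joining the pieces of one animal and black bars giving mean and SD (n = 4). Chrne, Chrnd, Etv4 and Gdnf lie near 0 in extrasynaptic pieces, the values of Ache are lower there but above 6 CPM, and the values of Musk overlap between the pieces.

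Of 16 tested genes in a list of transcripts known from nuclei under the synapse, 8 were higher, with a median log2 fold change of 0.23. Prkar1a, a regulatory subunit of protein kinase A, was the most abundant, at 485, 323, 427 and 387 CPM in perisynaptic pieces and 162, 125, 182 and 161 CPM in extrasynaptic pieces. Its lowest perisynaptic library was well above its highest extrasynaptic one (log2 fold change 1.36, SE 0.07, adjusted p = 7.5e-09). Ufsp1, which encodes a protease of the ubiquitin-like protein UFM, had 20.4, 36.0, 14.5 and 15.4 CPM in perisynaptic pieces, against 5.96, 7.06, 5.48 and 5.38 CPM in extrasynaptic pieces. That was a log2 fold change of 1.78 (SE 0.17, adjusted p = 6.4e-06). Ufsp1 starts 162 bases downstream of Ache on the same strand of chromosome 5, so reads that run past Ache could be counted for it, which was not tested.

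Ano4, a member of the anoctamin family of membrane proteins, was higher by 3.77 (SE 0.32), and Pdzrn4, a ring-finger protein with PDZ domains, by 3.11 (SE 0.37). The Pdzrn4 call was lost with animals 3 and 4 alone (adjusted p = 0.060). Phldb2, which encodes LL5beta, a protein that tethers microtubules under the synaptic membrane, had 31.3, 25.1, 27.7 and 24.0 CPM in perisynaptic pieces, against 13.0, 15.1, 13.1 and 10.9 CPM in extrasynaptic pieces. The groups were apart, with a log2 fold change of 1.06 (SE 0.11, adjusted p = 2.5e-05). Gramd1b, a carrier of sterols, was higher by 0.65 (SE 0.07). The intermediate filament gene Nes was higher by 0.90 (SE 0.17, adjusted p = 0.012). Nes lost its call without animal 1, without animal 2 and without animal 4, and without animal 2 the list had 6 called. Vav3, Lrrc3b and Syne1 gave 0.07, 0.05 and 0.07, and Ankrd1 gave -0.72 (SE 0.40, adjusted p = 0.42).

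Of 19 tested components of the synaptic lamina 1 was higher. The log2 fold changes of the list ranged from -0.34 to 1.22 with a median of 0.11, and 14 of the 19 were positive. The called gene was Col4a3, the alpha-3 chain of collagen IV. It had 7.29, 7.19, 6.54 and 7.07 CPM in perisynaptic pieces, against 4.15, 2.94, 2.67 and 2.48 CPM in extrasynaptic pieces. The groups were clearly apart (log2 fold change 1.22, SE 0.15, adjusted p = 0.00016). Col4a4, its partner chain, lies 71 bases away on the opposite strand and gave 0.24 (SE 0.14, adjusted p = 0.44), with overlapping values. Lamb2, the laminin chain concentrated at synapses, had 201, 241, 195 and 188 CPM in perisynaptic pieces and 189, 217, 196 and 163 CPM in extrasynaptic pieces, which overlapped (0.11, adjusted p = 0.42). Lama4 and Lama5 gave 0.03 and 0.11, and Col13a1, a membrane collagen of the NMJ at about 1 CPM, gave 0.91 (SE 0.34, adjusted p = 0.27).

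In the dystrophin and utrophin complex 0 of 16 genes were called, against 1.18% of all genes tested, with a median of -0.07. Utrn, the relative of dystrophin at the synapse, had 103, 80.9, 123 and 109 CPM in perisynaptic pieces and 85.5, 79.3, 99.6 and 97.4 CPM in extrasynaptic pieces. It was higher in all 4 animals by a small amount that was not called (0.19, SE 0.07, adjusted p = 0.29). Dmd had 96.1, 31.5, 184 and 183 CPM in perisynaptic pieces, against 107, 78.1, 172 and 208 CPM in extrasynaptic pieces. The very long Dmd transcript was lowest in the perisynaptic library of animal 2, and its log2 fold change of -0.36 (SE 0.19) was not called. Of 16 tested trophic factors, 1 was higher. It was Gdnf, a survival factor for motor neurons, at 2.34, 1.78, 0.996 and 1.72 CPM in perisynaptic pieces and 0.143, 0.0453, 0 and 0.066 CPM in extrasynaptic pieces (log2 fold change 4.67, SE 0.50, adjusted p = 2.9e-05).

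Genes of myelinating Schwann cells were the list with the most calls, with 18 of 19 higher and a median log2 fold change of 2.78. Prx, which encodes periaxin of the myelin sheath, had 16.4, 35.2, 15.9 and 11.4 CPM in perisynaptic pieces and 1.86, 1.99, 2.35 and 2.11 CPM in extrasynaptic pieces. Animal 2 had the highest perisynaptic value and animal 4 the lowest, but none approached the extrasynaptic range. The log2 fold change was 3.12 (SE 0.38, adjusted p = 9.7e-05).

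Further members differed by even more at lower levels. Cldn19, a claudin of Schwann cells, was higher by 6.03, Ncmap, a protein of noncompact myelin, by 5.08, and Gldn, the gliomedin of nodes of Ranvier, by 4.29. Pmp22 was the member not called, at 79.9, 86.7, 67.0 and 59.7 CPM in perisynaptic pieces, against 56.0, 50.3, 53.2 and 46.8 CPM in extrasynaptic pieces (0.50, adjusted p = 0.083). Those values did not overlap. Animal 2, whose perisynaptic library stood apart, held the highest perisynaptic value of 17 of the 19 members, and without that animal 15 members were called. Other lists differed widely in this. Animal 2 was highest for 34 of 36 genes of respiratory complex I, 13 of 14 endothelial genes and 11 of 14 smooth muscle genes. It was highest for 9 of 17 fast fibre genes, 3 of 22 unfolded protein response genes and 0 of 12 fibrillar collagens. The share over all genes tested was not computed, and the reason for these values was not tested. In extrasynaptic libraries Mag and Ugt8a were at 0 in animal 1, Cldn19 in animals 1 and 3, Ncmap in animal 3 and Gjb1 in animals 2 and 4.

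Of 13 tested genes for other Schwann cells, 4 were higher. Sox10, the transcription factor of all Schwann cells, had 2.89, 6.17, 3.31 and 1.50 CPM in perisynaptic pieces, against 0.477, 0.498, 0.506 and 0.396 CPM in extrasynaptic pieces (log2 fold change 2.77, SE 0.34, adjusted p = 0.0001). S100b, a calcium-binding protein of these cells, gave 2.84, the potassium channel gene Kcna1 2.11 and the cadherin gene Cdh19 1.05. Cdh19 lost its call when animal 1, animal 2 or animal 3 was left out. S100b lost its call with animals 3 and 4 alone (adjusted p = 0.0997). Scn7a was at 12.8 to 15.7 CPM in perisynaptic pieces and 12.8 to 15.1 CPM in extrasynaptic pieces, which overlapped for this marker of nonmyelinating cells (0.02, adjusted p = 0.97).

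Of 10 perineurial genes 6 were higher, and the median of the list was 0.98. Animal 2 held the highest perisynaptic value of 8 of the 10, and without that animal 4 were called. Cldn1, a tight junction protein of the nerve barrier, had 4.99, 5.96, 3.87 and 2.30 CPM in perisynaptic pieces and 0.524, 0.362, 0.921 and 0.297 CPM in extrasynaptic pieces. The groups did not overlap (2.99, SE 0.48, adjusted p = 0.0021). Itgb4, the beta-4 integrin, gave 1.58, Gli1, a target of hedgehog signalling, 1.76, Lypd2 4.44, Moxd1 1.90 and Slc2a1, a glucose transporter of nerve barriers, 0.38. Lypd2 had few counts and did not pass the stricter filter of 1 CPM in 4 libraries or the filter on the 8 libraries alone. With animals 3 and 4 alone, Lypd2, Cldn1 and Itgb4 lost their calls (adjusted p = 0.27 to 0.32). Moxd1 and Slc2a1 lost their calls without animal 1, without animal 2 and without animal 3, and Slc2a1 also without animal 4. The list's summed level was 70.4 to 127 CPM in perisynaptic pieces and 49.2 to 62.1 CPM in extrasynaptic pieces.

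Of 7 tested genes of axons and neurons 0 were called, against 1.18% of all genes tested, with a median of 0.07. Uchl1, an abundant neuronal enzyme, was lower in each perisynaptic piece but not called, at 3.53, 2.65, 1.75 and 1.90 CPM in perisynaptic pieces and 5.81, 9.42, 3.73 and 2.71 CPM in extrasynaptic pieces (-1.06, SE 0.36, adjusted p = 0.23). The list's summed level was 10.8 to 24.8 CPM in perisynaptic pieces and 12.5 to 25.2 CPM in extrasynaptic pieces. Of its 16 genes, 9 were not tested for want of counts.

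**Figure D3:**
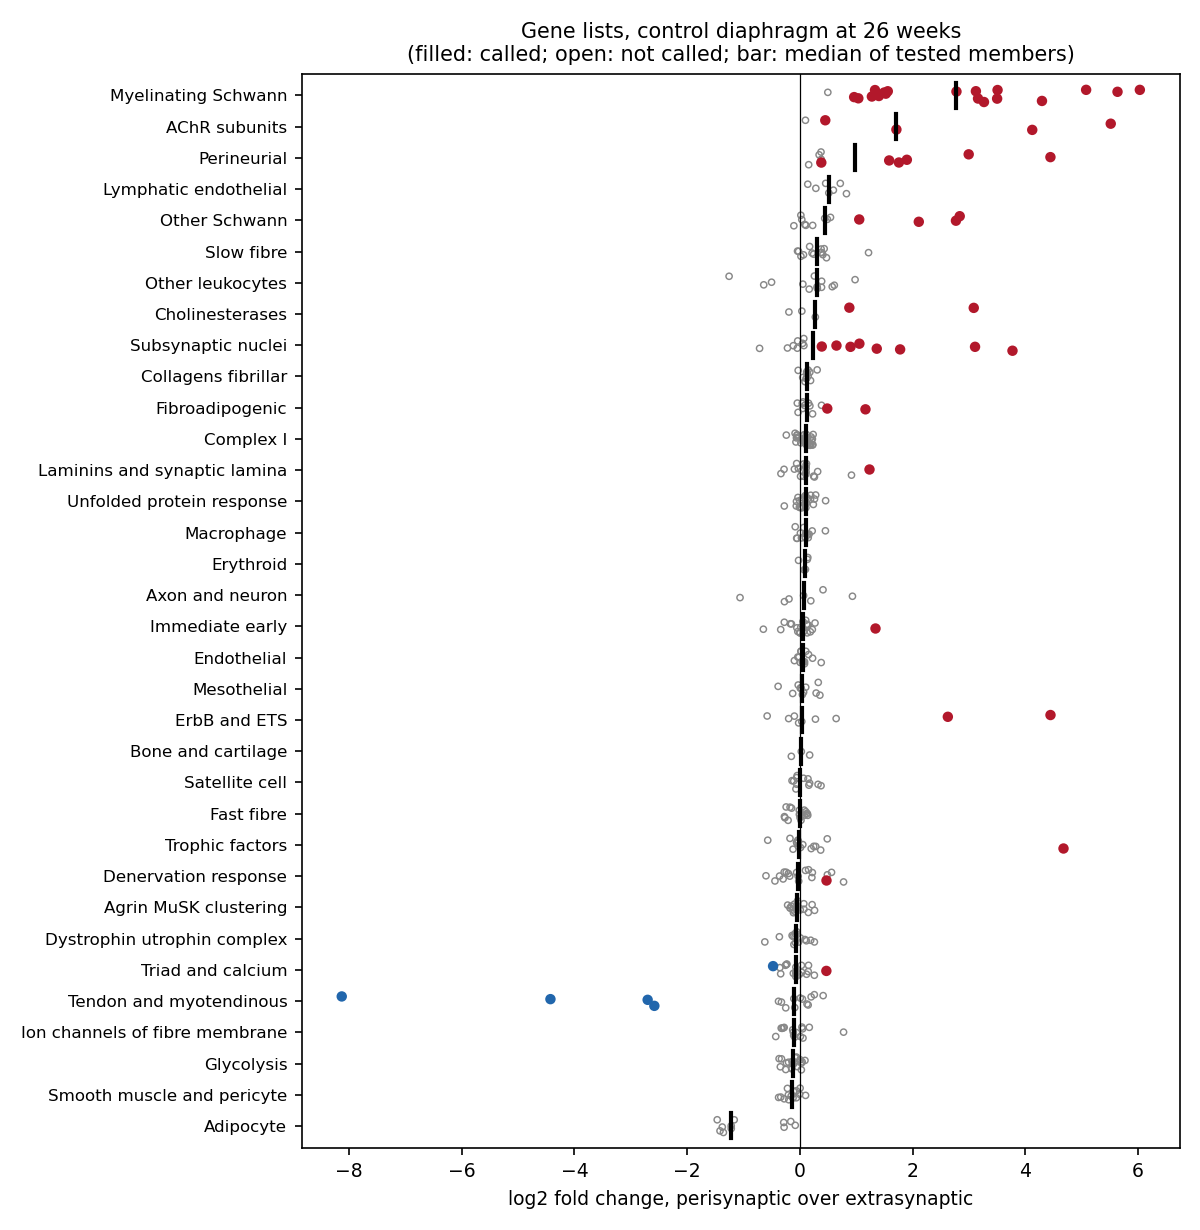
Log2 fold change of perisynaptic over extrasynaptic for each tested member of the gene lists (points; filled red or blue where called, open where not) with the median of each list (bar). Myelinating Schwann genes (median 2.78) and AChR subunits (1.71) lie to the right, 4 tendon and myotendinous genes lie far to the left, and the slow fibre genes have their median at 0.31 and the fast fibre genes at 0.0024.

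Among the falls, 4 of 16 tendon and myotendinous genes were lower in perisynaptic pieces, and the median of that list was -0.10. Col22a1, a collagen of the myotendinous junction (chromosome 15, 71795795 to 72034227, minus strand), had 1.70, 0.663, 1.67 and 1.06 CPM in perisynaptic pieces, against 9.63, 14.8, 7.36 and 2.57 CPM in extrasynaptic pieces. The gap was widest in animal 2 and narrowest in animal 4, and the log2 fold change was -2.58 (SE 0.47, adjusted p = 0.0063). Tigd4, which is derived from a transposase and known from nuclei at fibre ends, had 2.10, 0.917, 1.20 and 0.619 CPM in perisynaptic pieces and 11.2, 13.0, 7.04 and 2.24 CPM in extrasynaptic pieces. It gave -2.70 (SE 0.27, adjusted p = 1.8e-05).

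Chad, a cartilage and tendon matrix protein, had 0.198, 0.051, 0.0399 and 0.0884 CPM in perisynaptic pieces, against 2.19, 6.75, 1.01 and 0.231 CPM in extrasynaptic pieces (-4.43, SE 0.73, adjusted p = 0.0031). Kera, the tendon proteoglycan keratocan, had no count in any perisynaptic library and 0.906, 3.26, 1.70 and 0 CPM in extrasynaptic pieces. It was at least 41.5-fold lower in perisynaptic pieces, taking 3 counts over the 4 libraries as the floor, and at least 18.7-fold lower without animal 2, which held the highest value. DESeq2 did not call Kera (adjusted p = 0.51), and edgeR did not with animals 3 and 4 alone (adjusted p = 0.093). Extrasynaptic values of these genes were lowest in animal 4, where Kera had no count in either piece. Col22a1 lost its call without animal 1 and, with Chad, without animal 2, which left 2 of the list called. None of the 4 was called in the fit without the animal term. Among tendon genes not called, Tnmd gave -0.25 (adjusted p = 0.80) and Thbs4 0.20 (adjusted p = 0.75).

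**Figure D4:**
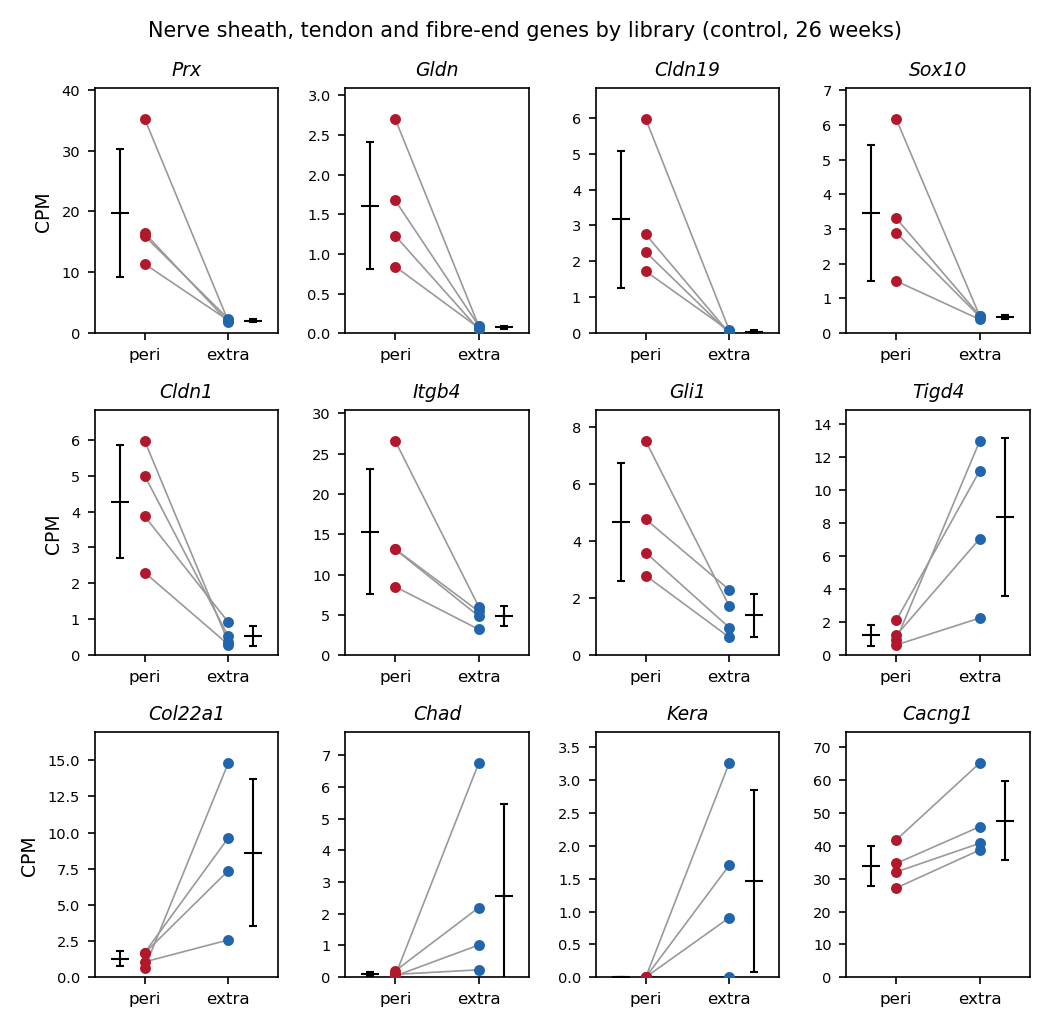
CPM of 12 genes in the 4 perisynaptic (red, left) and 4 extrasynaptic (blue, right) libraries, with grey lines joining the pieces of one animal and black bars giving mean and SD (n = 4). Prx to Gli1 are higher in all 4 perisynaptic pieces, Tigd4 to Chad and Cacng1 are lower in all 4, and Kera is at 0 in all 4.

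The remaining falls above 2 CPM were mostly small. Cacng1, the gamma subunit of the muscle calcium channel, had 34.7, 41.8, 27.2 and 32.1 CPM in perisynaptic pieces and 45.8, 65.2, 38.8 and 40.8 CPM in extrasynaptic pieces. The groups overlapped across animals, but each animal was lower in its perisynaptic piece (-0.48, SE 0.07, adjusted p = 0.0016). Pfkfb1, a regulator of glycolysis, had 31.9, 36.1, 34.3 and 36.1 CPM in perisynaptic pieces, against 45.2, 44.0, 43.8 and 48.5 CPM in extrasynaptic pieces, without overlap (-0.39, SE 0.06, adjusted p = 0.001). Both calls were lost in the fit without the animal term (adjusted p = 0.85 for Cacng1 and 0.95 for Pfkfb1) and with animals 3 and 4 alone (0.18 for Cacng1 and 0.077 for Pfkfb1). The Pfkfb1 call was also lost in the fit on the 8 libraries alone (adjusted p = 0.064).

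Mstn, the growth inhibitor myostatin, had 18.2, 6.78, 36.7 and 25.7 CPM in perisynaptic pieces and 28.1, 13.8, 46.8 and 26.9 CPM in extrasynaptic pieces (-0.47, SE 0.11, adjusted p = 0.040). The level of Mstn varied more among animals than between pieces. Alas1, the first enzyme of heme synthesis, gave -0.31, Castor2, an arginine-sensing protein, -0.30, Mdga1, a membrane-anchored adhesion protein, -0.71, and Csrnp1, a transcription factor, -0.27. Mstn, Mdga1 and Castor2 lost their calls without animal 1, 2 or 3, and Alas1 without animal 2. These 4 calls were also lost in the fit on the 8 libraries alone, without the animal term and with animals 3 and 4 alone. Csrnp1 was not followed through these alternatives.

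The largest rises above 2 CPM also held genes outside the lists. B4galnt3, a glycosyltransferase that adds N-acetylgalactosamine, had 6.22, 2.29, 5.22 and 4.37 CPM in perisynaptic pieces and 0.0477, 0.0906, 0.138 and 0 CPM in extrasynaptic pieces. It gave the largest log2 fold change of these genes, 6.03 (SE 0.56, adjusted p = 6.4e-06). Cabp7, a calcium-binding protein, had 15.9, 17.6, 11.2 and 13.9 CPM in perisynaptic pieces, against 0.477, 0.317, 0.276 and 0.165 CPM in extrasynaptic pieces. Every perisynaptic value was far above the extrasynaptic ones (5.60, SE 0.43, adjusted p = 8.8e-07). Cabp7 overlaps Zmat5 on the opposite strand.

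Igfbp2, which binds insulin-like growth factors, had 14.6, 20.3, 9.29 and 11.0 CPM in perisynaptic pieces and 0.906, 0.408, 1.15 and 0.165 CPM in extrasynaptic pieces. The groups were far apart (4.42, SE 0.34, adjusted p = 8.1e-07). Sfrp5, a secreted inhibitor of Wnt signalling, gave 4.55, with its highest perisynaptic value, 25.3 CPM, in animal 2. Kif1a, a kinesin of axonal transport, gave 2.52, and Dnaic1, a dynein chain of motile cilia, gave 2.49. Smco3, Gm20485 and Slitrk3 had no count in any extrasynaptic library and were at least 20.9-fold, 13.0-fold and 8.56-fold higher in perisynaptic pieces on the floor of 3 counts, at levels of 1.22 CPM or less. Without animal 2 the bound was 12.3-fold for Smco3 and 6.0-fold for Gm20485.

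No member of the lists of fast and slow fibre genes was called. Of 17 fast fibre genes 9 had a positive log2 fold change, with a median of 0.0024, and of 14 slow fibre genes 12 had one, with a median of 0.31. Myh7, the slow myosin, had 1385, 1278, 2512 and 1677 CPM in perisynaptic pieces, against 901, 1521, 1950 and 1729 CPM in extrasynaptic pieces, which overlapped (0.17, adjusted p = 0.54). Csrp3, the muscle LIM protein, came closest to a call in that list, at 75.8, 126, 39.4 and 81.7 CPM in perisynaptic pieces and 17.3, 40.8, 22.9 and 62.6 CPM in extrasynaptic pieces (1.22, SE 0.30, adjusted p = 0.061). Each animal was higher in its perisynaptic piece, although the groups overlapped. Of 19 genes of the denervation response, 1 was called higher, Sln, which encodes the calcium pump inhibitor sarcolipin (0.47, SE 0.10, adjusted p = 0.032). The Sln call was lost without animal 1, 2 or 4. Myog, a denervation-induced myogenic factor, gave 0.56 (adjusted p = 0.072).

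No gene was called in the lists of endothelial, lymphatic, smooth muscle, adipocyte, mesothelial, macrophage, other leukocyte, erythroid and satellite cell markers. Their medians lay between -0.14 and 0.51 except in adipocytes, where it was -1.22. Adipoq, the fat cell hormone adiponectin, had 16.0, 17.4, 10.2 and 1.33 CPM in perisynaptic pieces and 17.1, 12.5, 42.4 and 26.8 CPM in extrasynaptic pieces. Animals 3 and 4 were lower in the perisynaptic piece by far, while animal 2 was higher (-1.22, SE 0.78, adjusted p = 0.47). Of the 11 tested adipocyte genes 0 had a positive log2 fold change, with a range of -1.47 to -0.08. At 15 weeks the median of that list was -4.05, with 0 called. Among 12 fibroadipogenic genes, 2 were higher, the chemokine gene Cxcl14 (1.16, SE 0.13, adjusted p = 5.4e-05) and the matrix gene Smoc2 (0.49, SE 0.10, adjusted p = 0.013). The Smoc2 call was lost whichever animal was left out.

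Control animals at 15 weeks, which share no library with those at 26 weeks, had 188 calls (1.16% of genes tested), 151 higher (0.936%) and 37 lower (0.229%). Of these, 130 were also called at 26 weeks, all with the same sign, which was 68.4% of the calls at 26 weeks and 69.1% of those at 15 weeks. Of the 190 genes called at 26 weeks, 188 had the same sign at 15 weeks, and Cyp20a1 and Zfp13 had the other. Across those 190 genes, which are not independent replicates, Pearson's r of the log2 fold changes was 0.93 and Spearman's rho 0.95. Chrne averaged 24.6 ± 8.12 CPM in perisynaptic and 0.513 ± 0.169 CPM in extrasynaptic pieces at 26 weeks (SD, n = 4), against 25.3 ± 3.69 and 0.377 ± 0.0902 CPM at 15 weeks (SD, n = 3). Prx averaged 19.7 ± 10.5 and 2.08 ± 0.207 CPM in those pieces at 26 weeks, against 24.1 ± 8.12 and 3.59 ± 2.03 CPM at 15 weeks. Lrp4, not called at 26 weeks, was called at 15 weeks at 0.51 (adjusted p = 0.016). The difference between the ages was called for 0 of 16138 genes in edgeR (0%). An unadjusted p under 0.05 was found for 478, less than a 0.05 share of the genes tested. DESeq2 called 9, all with a higher region effect at 26 weeks, among them mt-Tq, mt-Nd6 and Rn7sk.

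**Figure D5:**
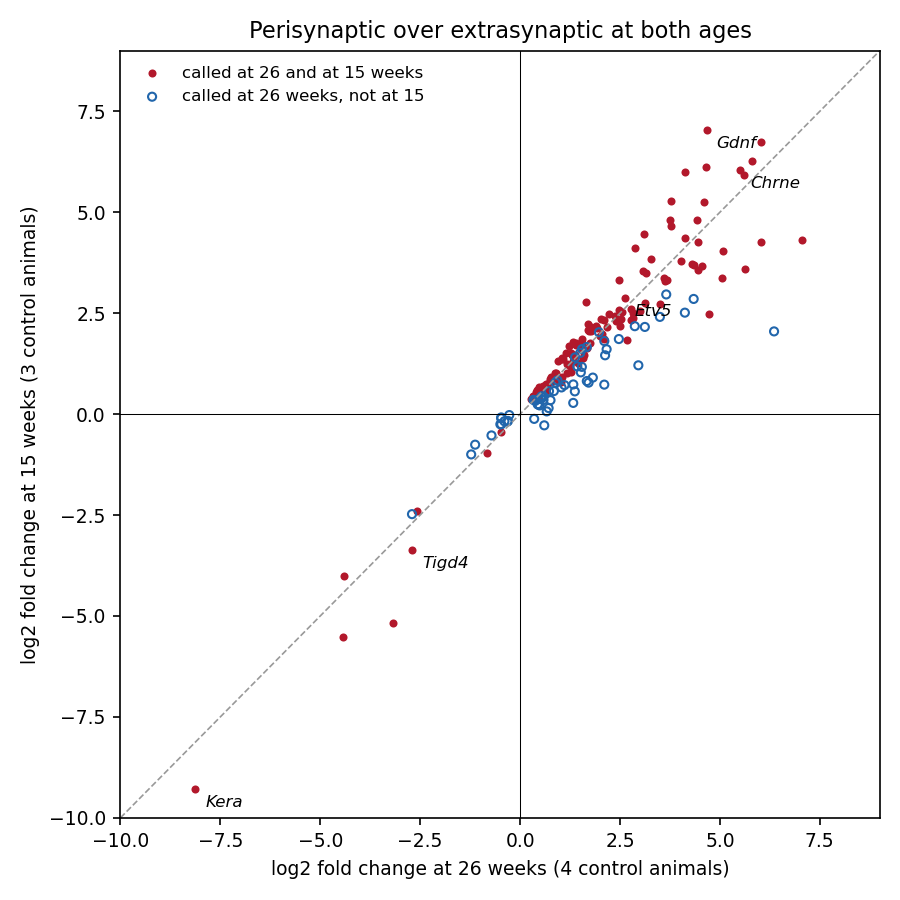
Log2 fold change of perisynaptic over extrasynaptic at 26 weeks (horizontal, 4 animals) and at 15 weeks (vertical, 3 animals) for the 190 genes called at 26 weeks, filled where also called at 15 weeks (130 genes) and open where not. The dashed line marks equal values, and all but 2 genes have the same sign at both ages.

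The difference between the pieces depended on genotype at 26 weeks for 2 genes (0.0124% of genes tested), 1 in each direction (0.0062% each). Chrna1 had 90.8 to 120 CPM in perisynaptic and 57.0 to 71.4 CPM in extrasynaptic pieces of SBMA animals, against 37.3 to 49.5 and 9.24 to 15.6 CPM in those of control animals. The region effect was smaller in SBMA animals by a log2 difference of -1.01 (SE 0.15, adjusted p = 0.021). That call held in 6 of 14 alternatives and was lost without control animal 1 (adjusted p = 0.19) and without any one of the 4 SBMA animals (adjusted p = 0.051 to 0.27). Igkv14-126, an immunoglobulin segment, had 0 to 8.32 CPM in perisynaptic and 0 to 0.137 CPM in extrasynaptic pieces of SBMA animals. In control animals 1 to 4 it had 0.0396, 0, 0.0399 and 0 CPM in perisynaptic pieces, against 0.0953, 0, 2.35 and 0.495 CPM in extrasynaptic pieces. Each group included libraries without a count, and the log2 difference of 10.9 (SE 1.37, adjusted p = 0.021) was called in 7 of 13 alternatives.

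Over the 8 libraries, the genes of at least 2 CPM whose log2 CPM correlated most with Chrne included Ache, Etv5, Chrnd, Prx, Dnaic1, Cabp7, Rps6ka1, Pla2g7 and Etv4. Pearson's r ran from 0.99 for Ache to 0.98 for Etv4, across libraries that share the split into pieces, so these values describe that split. Rps6ka1, a kinase downstream of ERK, had 35.6, 35.1, 23.5 and 18.2 CPM in perisynaptic pieces and 4.38, 5.80, 5.34 and 4.06 CPM in extrasynaptic pieces. It gave 2.48 (SE 0.13, adjusted p = 7.5e-09). Pla2g7, a secreted phospholipase that inactivates platelet-activating factor, gave 1.91 (SE 0.16).

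Windows of 300 bases (250 before to 50 after the gene start) were found for 120 of the 170 genes called higher. CCGGAA was in 17 of them, or 14.2% (95% Wilson interval 9.04% to 21.5%), among them Chrne, Prkar1a, Dnaic1, Map2k1 and Egr2. The share was 21.4% (3 of 14) for genes called lower and 28.8% (3339 of 11597) for all genes tested. CANNTG was in 74.2% of windows of genes called higher, in 71.4% of those called lower and in 68.5% of all. CCGGAA was thus less frequent among genes called higher than among all genes tested, and the longer CCGGAAG was in 4.17% against 18.1%. The genes called higher include 18 of the 19 myelinating Schwann genes, so these shares do not describe synaptic genes of the fibre alone. The interval treats genes as independent draws, which these are not, and no test of the shares was run.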

How the data were processed

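Libraries of both pieces of each animal were analysed as deposited. Poly(A) RNA libraries were made with a KAPA stranded kit after miRNeasy extraction, per the labels' protocols. The deposited values are raw counts per gene from featureCounts on the mm10 genome, per the submitters' processing notes; the sources used here name no aligner, annotation release or strand setting. Identifiers were matched to GENCODE M21 (33064 of 33076; the other 12 carried 0.00171% of counts).

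One edgeR 4.0.16 quasi-likelihood fit (R 4.3.3) held all 30 libraries, with a term per animal and a region effect per genotype and age (19 columns, 11 residual degrees of freedom). Genes passed filterByExpr (minimum count 10, minimum total 15), counts were scaled with TMM factors, and genes were called at a Benjamini-Hochberg adjusted p under 0.05 over 16138 genes, 2-sided. Log2 CPM used a prior count of 2. Library names tie the pieces of an animal, and after group means were removed the pieces of one animal correlated at 0.358 or more (mean 0.508), against at most 0.147 between animals. An exact sign-flip test of 4 pairs cannot go below p = 0.125. On simulated counts (16047 genes) the fit recovered 98% of 2-fold rises and 96% of 2-fold falls and called 15 of 15847 unchanged genes. The changed genes had at least 2 CPM, and the spread was that of the fit itself. Floors cover counting error only, and the interval of the motif share treats genes as independent draws.

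Named genes were the 15 largest rises and falls of at least 2 CPM, the members of the synaptic lists, and up to 6 members of each other list by p; the text gives a selection. Genes, lists and members were chosen with earlier results of these data known, so no list is independent support. No set test was run. Alternatives were DESeq2 1.42.0, RLE factors, total counts, other filters, fewer libraries, no animal term, and each animal left out in turn. Some genes are not reported here, though they are counted in list totals.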

Additional observations from a re-analysis of the deposited data

Results flagged for a closer look

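In 8 of 176 groups of 4 libraries checked, 1 library lay far from the other 3; chance flags about 1 in 20 such groups. Animal 2 was the odd one in perisynaptic pieces for Castor2 (163 CPM, the others 245 to 253), Efcab6 (3.52 CPM, the others 5.10 to 5.39) and Sln (654 CPM, the others 389 to 419). In extrasynaptic pieces animal 2 was the odd one for Bche (21.8 CPM, the others 33.3 to 36.1) and Etv4 (0.860 CPM, the others 0.363 to 0.381). Animal 1 was the odd one for Hspg2 in its perisynaptic piece (388 CPM, the others 456 to 462), and in its extrasynaptic piece for Dok7 (26.4 CPM, the others 46.7 to 48.9) and Gjc3 (0.0477 CPM, the others 0.181 to 0.198).

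The region effect differed between SBMA and control animals at 26 weeks for Chrna1 (log2 difference -1.01) and for Igkv14-126 (10.9), by the test of the difference itself. The Igkv14-126 difference was not called by DESeq2 (6.93) or when SBMA animal 3 (9.06), control animal 1 (11.8), control animal 3 (9.48) or control animal 4 (10.7) was left out.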

How the results depend on the processing

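The count of 190 genes stayed within 1.5 times in DESeq2 (200), with RLE factors (189), with total counts (186), with a stricter filter (167) and without the animal block (135, of which 134 were higher); the pairing is by animal. It moved to 783 with no filter on low counts (53.0% higher in place of 89.5%), to 124 with the 8 libraries alone, to 59 with animals 3 and 4 alone, and to 99 to 170 when each animal was left out. The share called higher was 65.2% in animals 1 and 2 alone. At 15 weeks 188 became 568 with no filter, 118 without the animal block and 59 to 174 when each animal was left out. The age difference (0) became 9 in DESeq2, 86 with no filter and 0 to 3 when each animal was left out. The genotype difference (2) became 5 in DESeq2, 1 with total counts, 65 with no filter, 0 with the stricter filter, 0 without the animal block and 0 to 3 when each animal was left out. Fewer libraries and genes enter some of these; beyond that the cause was not tested. All 59 called of 88 genes followed kept their direction, and 30 kept their call in every alternative. Signs turned in 5 genes that were not called: Chrng (-1.58 with animals 3 and 4 alone, -0.95 to 1.40 with each animal left out and -0.0047 without animal 2), Rapsn (0.0311), Agrn (-0.0079 to 0.113 with each animal left out), Hspg2 (-0.0607 with animals 1 and 2 alone, -0.0293 to 0.0817 with each left out) and Erbb3 (-0.0718 with animals 3 and 4 alone, -0.0416 to 0.0905 with each left out). The motif share of 14.2% was 4.17% for CCGGAAG.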

Other observations

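The genes and families described here were picked after their values were seen, and the families were not tested as groups. Of 40 tested collagen chains, counted by gene symbol, 7 were higher and 1 was lower, with a median log2 fold change of 0.13. Besides Col4a3 the higher ones were those that follow, and the lower one was Col22a1. Col19a1 gave a log2 fold change of 4.12, Col20a1 1.40, Col23a1 1.05, Col25a1 2.00, Col26a1 2.68 and Col28a1 1.67. Col25a1, a membrane collagen, had 2.81, 2.50, 2.11 and 2.78 CPM in perisynaptic pieces, against 0.858, 0.543, 0.598 and 0.561 CPM in extrasynaptic pieces, without overlap (adjusted p = 1.2e-05 in edgeR). Of 12 tested Wnt ligands 2 were higher, Wnt16 by 1.31 and Wnt6 by 1.77, and 0 were lower, with a median of 0.09. Of 10 tested frizzled receptors 1 was higher, Fzd10 by 1.77, and 0 were lower, with a median of 0.08. Fzd10 had 7.41, 7.34, 6.86 and 6.98 CPM in perisynaptic pieces and 1.76, 2.40, 2.76 and 1.58 CPM in extrasynaptic pieces.

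Map2k1, a kinase gene, had 83.7, 63.8, 75.3 and 70.0 CPM in perisynaptic pieces, against 51.3, 47.9, 53.7 and 51.4 CPM in extrasynaptic pieces (0.51, SE 0.06, adjusted p = 4.1e-05). Dusp6, a phosphatase gene, gave 0.95 (SE 0.14). Hcn4, a pacemaker channel gene, had 2.34, 5.71, 3.91 and 3.36 CPM in perisynaptic pieces and 0.143, 0.181, 0.230 and 0.033 CPM in extrasynaptic pieces (4.73, SE 0.65). Irf8, a transcription factor of myeloid cells, gave 0.92 (SE 0.12). Of 14 macrophage markers 0 were called and 11 had a positive log2 fold change, with a median of 0.10.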
